A study of Isoetes sinensis with 3 samples.

Results

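Chr19 and Chr20 are a pair of matching pseudochromosomes in the genome assembly of *Isoetes sinensis*, an amphibious quillwort of the lycophytes that is a tetraploid. All gene models placed on either of them were taken, which gave 2418 genes on Chr19 and 2075 on Chr20, or 4493 of the 57303 genes in the annotation. The study assembled this genome and sequenced RNA from tissues labelled root, shoot and sporophyte, with 1 library per tissue. No treatment or contrasting genotype is named in the sample labels. The study's methods list roots, shoots and sporangia, so they differ from the label sporophyte. Only the gene annotation was analysed here, so the values below are positions, strands and lengths of gene models in the study's own assembly, without expression, replicates or sequence.

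A polyploid plant carries matching chromosomes that descend from a shared ancestor, called homeologs, and genes on a pair of homeologs usually keep much of their ancestral order, which is called collinearity. Inversions flip a run of genes and turn each onto the other strand, whereas transpositions move a gene or a block elsewhere. The lengths of coding exons are held by the reading frame and tend to last, while introns are freer to gain and lose bases, and the copies of a gene can therefore often be recognised by the order of their exon lengths.

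The copies were paired by that property. A gene with at least 5 coding (CDS) segments was called an anchor when the ordered lengths of its internal CDS segments occurred in exactly 1 Chr19 gene, exactly 1 Chr20 gene and no other pseudochromosome gene. There were 285 such anchors, with 5 to 65 CDS segments and a median of 8. They were 33.1% of the 862 Chr19 genes and 37.9% of the 751 Chr20 genes with enough segments, against 41% of such genes over all 22 pseudochromosomes. The median distance between neighbouring anchors was 0.151 Mb on Chr19 and 0.141 Mb on Chr20.

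The pair had been singled out as the least collinear of 11, and its anchor order did have the lowest Spearman's rho, 0.945, against 0.971 to 0.99998 in the 10 other pairs. That value rested on 4 of the 285 anchors. Without the 2 isolated anchors it was 0.958, without the 2 anchors at the far end of Chr19 it was 0.986, and over the remaining 281 anchors, called the backbone below, it was 0.99995. The 4 anchors were set aside after their positions had been seen. With only the isolated anchors left out, the 10 other pairs had 0.985 to 0.99998, and 19/20 was still the lowest. No anchors at a chromosome end were set aside in the other pairs, so 0.99995 has no counterpart there. By counts of breaks, blocks and isolated anchors the pair was not at the extreme. It had 1 large break, meaning a jump of more than 10 anchor ranks, against 0 to 6 in the other pairs. It had 45 blocks of strictly consecutive anchors against 26 to 57, with position 4 of 11 from the highest, and 2 isolated anchors against 0 to 5. The number of blocks was not scaled by the number of anchors, 285 here against 281 to 435 in the others. The pairs with more blocks were 21/22 (57 blocks, 281 anchors), 5/6 (52 blocks, 435 anchors) and 17/18 (52 blocks, 413 anchors). The description least collinear therefore held for rho and not for the number of breaks.

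**Figure D1:**
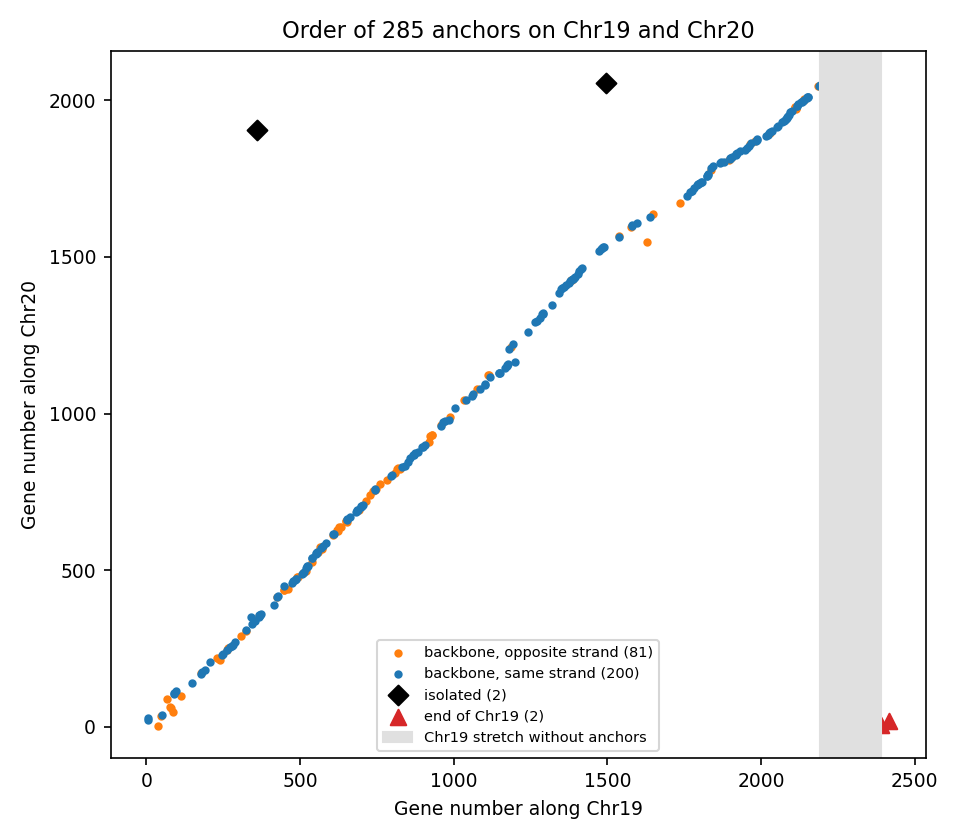
Each point is 1 of 285 anchors, placed by the number of its gene along Chr19 (x) and along Chr20 (y), with colours for the same or opposite strand on the backbone. The 281 backbone anchors follow the diagonal with a rho of 0.99995, 2 isolated anchors (diamonds) and 2 anchors at the end of Chr19 (triangles) lie away from it, and the shaded stretch of Chr19 has no anchor.

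The 1 large break lay near the end of Chr19. On its left side was evm.TU.Chr19.4093 (76118720 to 76124702, minus strand, 11 CDS segments), whose partner evm.TU.Chr20.3884 sat at 75244082 to 75248571, close to the end of Chr20. On its right side was evm.TU.Chr19.4472 (83929090 to 83951984, minus strand, 18 CDS segments), whose partner evm.TU.Chr20.8 sat at 263286 to 298476 on the plus strand, the fourth gene counted from the start of Chr20. The last anchor of Chr19, evm.TU.Chr19.4515 (84526432 to 84529390), likewise had its partner evm.TU.Chr20.37 near the start of Chr20, at 650410 to 653218, and on the opposite strand. The last 30 genes of Chr19 thus held 2 anchors, and both pointed to the opposite end of the partner chromosome. Both were on opposite strands, yet their order on Chr20 was the same as on Chr19. Internal introns were equal in 5 of 15 cases in evm.TU.Chr19.4472 and in 3 of 6 in evm.TU.Chr19.4515. Together this was 8 of 21 (38.1%), against 70% to 79.4% in the windows along Chr19 before 80 Mb. The total CDS was equal in both, 1917 bp and 1149 bp. Intron lengths thus backed these 2 pairings less than those of anchors elsewhere taken by window.

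The start of Chr20 drew its anchors from both ends of Chr19. Its first anchor gene, evm.TU.Chr20.4 (161201 to 164886), paired with evm.TU.Chr19.80 (1275351 to 1279036), a gene of 9 CDS segments with 6 of 6 internal introns of identical length and the opposite strand. Next came the partners of evm.TU.Chr19.4472 and evm.TU.Chr19.4515. After them came evm.TU.Chr20.42 (820352 to 822518), the partner of evm.TU.Chr19.16 (218944 to 221108), which was the first anchor of Chr19. The first 21 genes of Chr20 therefore contained 4 anchors whose partners were spread over the first 36 and the last 30 genes of Chr19.

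The isolated anchors had their Chr20 copies far from those of their Chr19 neighbours. The gene evm.TU.Chr19.674 (11605039 to 11609508, 15 CDS segments) paired with evm.TU.Chr20.3629 (70311064 to 70315977) on the opposite strand, with 7 of 12 internal introns equal and a CDS of 2391 bp on Chr19 against 2403 bp on Chr20. The block of Chr19 anchors around it, which ended at 11.8 Mb, had its partners between 11.6 and 12.5 Mb on Chr20, whereas its own Chr20 copy lay among the partners of Chr19 anchors at 57.3 to 72.8 Mb. The other, evm.TU.Chr19.2830 (52841825 to 52844670, 8 CDS segments), paired with evm.TU.Chr20.3901 (75715675 to 75718487) on the same strand, with 4 of 5 internal introns equal and an equal CDS of 981 bp. That Chr20 copy was the last anchor of Chr20.

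The isolated gene evm.TU.Chr20.3901 was not alone. It was one of the 27 genes that followed the last backbone anchor on Chr20, of which 13 had at least 5 CDS segments. Of these 13, 6 shared their internal exon lengths with a Chr19 gene, and the matching Chr19 genes all lay between 52.8 and 53.1 Mb. One such gene, evm.TU.Chr20.3902 (11 CDS segments), had a second copy on Chr20 in evm.TU.Chr20.3908 close by, and both shared the structure of evm.TU.Chr19.2831. Of the rest, evm.TU.Chr20.3918 and evm.TU.Chr20.3919 at 76.1 Mb matched evm.TU.Chr19.2832 and evm.TU.Chr19.2849, and each also had a copy on Chr20 itself, in evm.TU.Chr20.2910 at 56.7 Mb and evm.TU.Chr20.2911 at 56.8 Mb. Those copies lay just past evm.TU.Chr20.2903 (56603392 to 56605787), the partner of the backbone anchor evm.TU.Chr19.2823. These structures of the Chr19 segment were therefore found at the collinear place and again at the end of Chr20. A further copy on Chr20, or for evm.TU.Chr20.3914 on Chr4, kept all of the 6 but evm.TU.Chr20.3901 from counting as anchors. These genes of the Chr20 end were looked at after the anchor positions had been seen.

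Order along the backbone was kept in long forward blocks interrupted by short reversed ones. The 281 backbone anchors fell into 40 blocks, of which 22 ran forward with 244 anchors, 11 ran in reverse with 30 anchors and 7 were single anchors. The largest forward block held 60 anchors, from evm.TU.Chr19.3072 to evm.TU.Chr19.3930, and covered 15.5 Mb on Chr19 (57282821 to 72784311) against 12.3 Mb on Chr20 (59961400 to 72244896). The reversed blocks were small: the largest held 5 anchors, up to evm.TU.Chr19.3955, and covered 0.0674 Mb on Chr19 (73289733 to 73357119) against 0.175 Mb on Chr20 (72569639 to 72744206). The longest reversed block on Chr19 held 4 anchors, from evm.TU.Chr19.138 to evm.TU.Chr19.189, and covered 0.858 Mb on Chr19 (2350831 to 3209025) against 1.13 Mb on Chr20 (2116969 to 3250435). All 4 of its anchors were on opposite strands.

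The backbone had 18 reordered stretches. Of these, 11 were each 1 reversed block in its place, with 30 anchors, and 7 joined neighbouring blocks that had exchanged places, with 28 anchors. Together the 18 held 58 anchors, 284 Chr19 genes over 7.89 Mb and 290 Chr20 genes over 8.89 Mb, so they contributed little to the difference in gene number. The counts within single stretches differed more. The stretch from evm.TU.Chr19.2249 to evm.TU.Chr19.2282 held 22 Chr19 genes against 56 Chr20 genes, and the stretch from evm.TU.Chr19.2911 to evm.TU.Chr19.3052 held 91 Chr19 genes against 62 Chr20 genes.

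Strand was compared next, since it was not used in choosing the pair. The copies were on opposite strands for 84 of 285 anchors, or 29.5%, where the share over all 11 pairs was 25.8%. The 10 other pairs averaged 25.4% ± 4.02 (SD) and reached 31.0%, and 19/20 stood in position 4 of 11 from the highest. The difference of 4.10 percentage points was within the spread of the pairs (two-sided exact permutation test of 1 pair against 10, p = 0.636, adjusted over 3 tests 0.818). The smallest p this design can give is 0.0909.

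Opposite strand and reversed order went together only in part. Of 35 steps between neighbouring backbone anchors that were both on opposite strands, 17 were reversed on Chr20, against 2 of 153 steps between anchors both on the same strand. The 81 backbone anchors on opposite strands fell into 46 runs along Chr19, of which 29 were a single gene between neighbours of the same strand. Only 9 runs held at least 3 anchors, 36 in all. The longest run held 7 anchors, from evm.TU.Chr19.1186 to evm.TU.Chr19.1245 (21246395 to 22534919), with 2 of 6 steps reversed.

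Opposite strands were unevenly spread along Chr19. Over the 10 Mb windows between 0 and 40 Mb the share was 43.8%, 32.0%, 48.8% and 34.5%, with 32, 50, 41 and 29 anchors. Over those between 40 and 80 Mb it was 8.33%, 25.0%, 15% and 23.1%, with 36, 16, 40 and 39 anchors. All windows before 40 Mb were thus above all windows between 40 and 80 Mb, a description for which no test was run. The 2 anchors past 80 Mb were both on opposite strands. The window from 50 to 60 Mb had the fewest anchors before the chromosome end, 16 among 96 genes with at least 5 CDS segments.

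The structure of the anchor genes was compared in the same way. Internal introns were equal in length to the base in 1529 of 2057 cases, or 74.3%, against 70.1% ± 2.57 (SD) in the 10 other pairs. This was the highest share of the 11, with the next pair, 3/4, also at 74.3%, and the difference of 4.23 percentage points gave an exact permutation p of 0.182 (two-sided, adjusted 0.545). The total CDS, whose outer segments the pairing did not use, was equal in 248 of 285 anchors, or 87.0%, against 86.1% ± 1.91 in the other pairs (exact permutation p = 0.818, adjusted 0.818). Where the CDS differed, it was longer on Chr19 in 24 anchors and longer on Chr20 in 13.

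**Figure D2:**
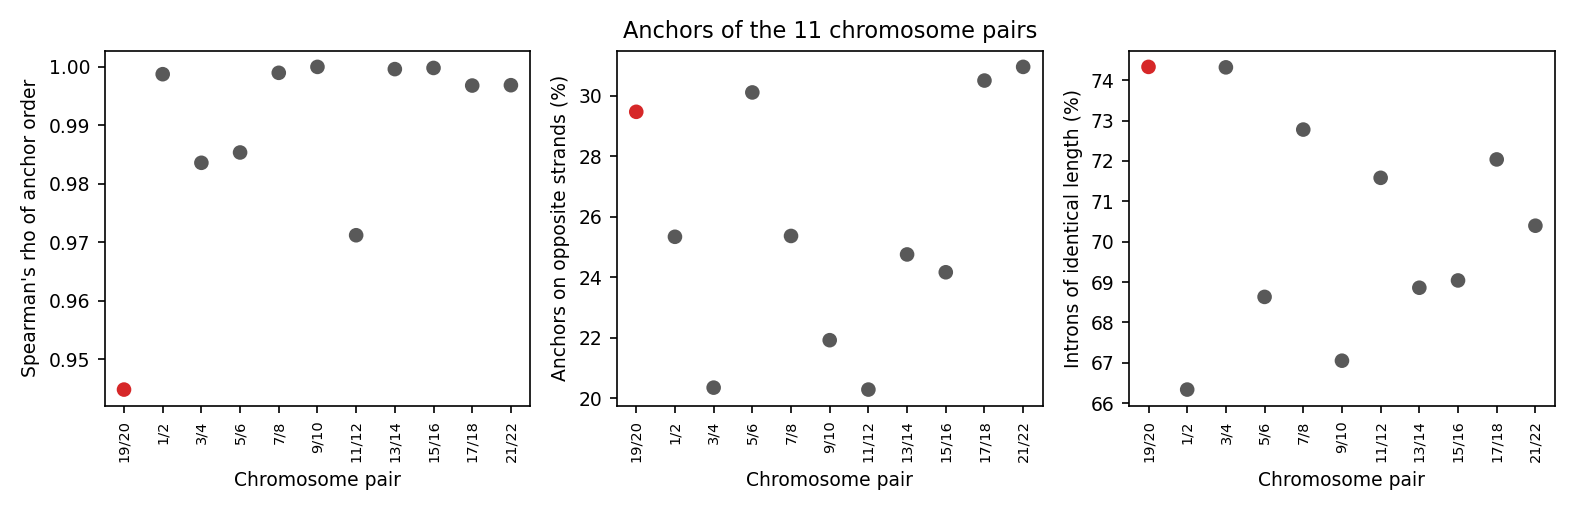
Spearman's rho of anchor order, the share of anchors on opposite strands and the share of internal introns of identical length, each as 1 point per chromosome pair, with pair 19/20 first and in red. Pair 19/20 is lowest in rho at 0.945, in position 4 in opposite strands at 29.5% and highest in identical introns at 74.3%; the vertical axes do not start at 0.

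Most intron differences were small. Of the 528 introns of unequal length 285 differed by at most 5 bp, and the median difference was 4 bp. Neither chromosome had consistently the longer copy, with 261 introns longer on Chr19 and 267 longer on Chr20. In 66 anchors every internal intron was equal, and in 5 none was. A group of 20 introns differed by at least 500 bp, 7 of them longer on Chr19 and 13 longer on Chr20. Summed over all anchors, internal introns took 581136 bp on Chr19 and 596579 bp on Chr20. Anchors on opposite strands had 403 of 576 introns equal (70.0%), and anchors on the same strand had 1126 of 1481 (76.0%).

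The 5 anchors with the largest summed difference were spread over the chromosome. The largest difference was in evm.TU.Chr19.4472, the gene at the break near the end of Chr19, whose internal introns summed to 19835 bp on Chr19 against 32050 bp on Chr20, while the CDS stayed at 1917 bp. In evm.TU.Chr19.2268 (41420494 to 41449601) the introns summed to 27574 bp against 17643 bp in evm.TU.Chr20.2265, again with an equal CDS of 1023 bp. The adjacent genes evm.TU.Chr19.975 and evm.TU.Chr19.976, at 17.1 to 17.2 Mb, both had the shorter introns on Chr19, 6611 bp against 11691 bp in evm.TU.Chr20.937 and 2384 bp against 7623 bp in evm.TU.Chr20.946. The gene evm.TU.Chr19.3901 (72161997 to 72173290) had 6812 bp against 1881 bp in evm.TU.Chr20.3700. All 5 kept the same total CDS length in both copies.

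**Figure D3:**
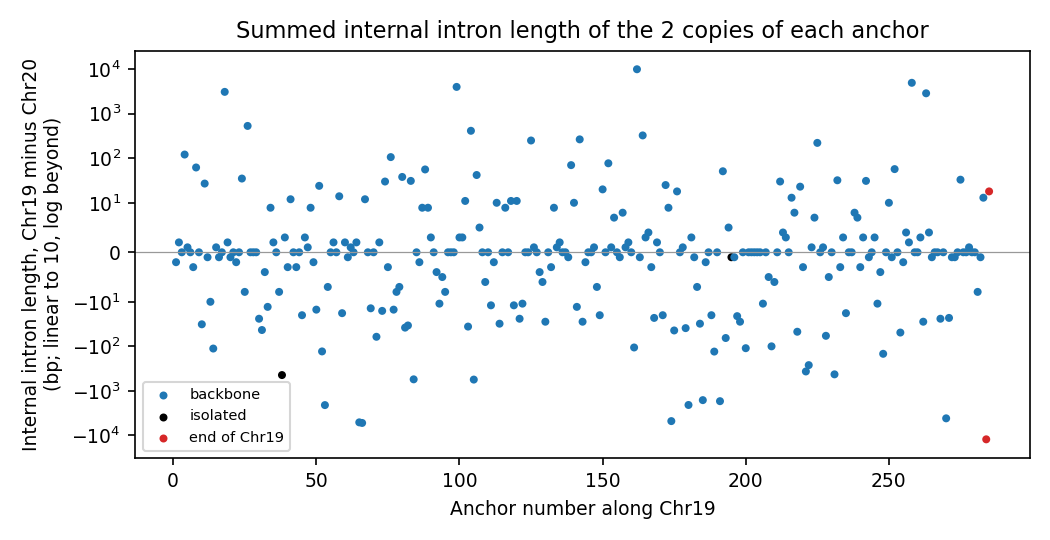
Summed internal intron length on Chr19 minus that on Chr20 for each of 285 anchors, ordered along Chr19; the y axis, in bp, is linear up to 10 bp and logarithmic beyond. Most anchors lie near 0, and the extremes are 9931 bp in evm.TU.Chr19.2268 and -12215 bp in evm.TU.Chr19.4472.

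The anchor with most CDS segments was evm.TU.Chr19.898 (15584214 to 15621862), which also had the most segments of any gene on its chromosome, as its partner evm.TU.Chr20.866 (16583706 to 16623436) had on Chr20. The CDS of each was 12954 bp, and the unequal introns left the internal introns of the Chr19 copy at 23819 bp against 25901 bp. The longest gene of each chromosome was no anchor. On Chr19 it was evm.TU.Chr19.2541 (47214128 to 47313845), a model of 99718 bp with 7 CDS segments. On Chr20 it was the joined model evm.TU.Chr20.1131_evm.TU.Chr20.1132 (21690468 to 21792168), 101701 bp long with a CDS of 1050 bp. Nearly all of each model was 1 intron, 96456 bp on Chr19 and 99232 bp on Chr20.

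Chr19 had 343 more genes than Chr20, the largest excess among the 11 pairs, whose other differences between the first and the second chromosome ran between -188 and 300 genes. Its genes reached 84.7 Mb, against 76.3 Mb on Chr20, and gene density was 28.6 per Mb against 27.2 per Mb (22 pseudochromosomes, 28.3 ± 1.11, SD). The gene models themselves were alike: 22.4% of Chr19 genes and 22.9% of Chr20 genes had a single CDS segment, the mean was 4.70 segments on both, and the mean CDS was 1096 bp on Chr19 and 1089 bp on Chr20. These differences were smaller than the spread over the 22 pseudochromosomes, whose SD was 1.42 percentage points, 0.159 segments and 26.2 bp.

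The excess was located by counting genes before, along and after the backbone. Before the first backbone anchor there were 3 Chr19 genes and 2 Chr20 genes. Between the first and the last there were 2187 Chr19 genes in 75.9 Mb and 2046 Chr20 genes in 75.1 Mb, an excess of 141 genes or 41.1% of the total. After the last backbone anchor there were 228 Chr19 genes in 8.55 Mb and 27 Chr20 genes in 1.05 Mb, an excess of 201 genes or 58.6%. More of the excess therefore lay in the last 8.55 Mb of Chr19 than in all the rest.

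The end of Chr19 consisted of a stretch without anchors and the terminal 30 genes described above. The stretch ran between 76.1 and 83.9 Mb and held 198 genes, at 25.3 per Mb. Its gene models resembled those elsewhere on Chr19, with 72 genes of at least 5 CDS segments (36.4%, against 36.5% of other Chr19 genes) and 19.7% with a single segment (against 21.9%). The stretch was defined by having no anchor, so the absence of anchors in it is no result. Copies of any kind were then searched for. Of the 72 genes 1 (1.39%), evm.TU.Chr19.4157, shared its internal exon lengths with a Chr20 gene. With a gene on an unplaced scaffold 20 (27.8%) did so, 17 of these with nothing else, and 47 (65.3%) matched no other gene of the annotation. Of the 443 such genes among other Chr19 genes that were no anchor, 67 (15.1%) matched a Chr20 gene. A match on an unplaced scaffold was found for 23 (5.19%), 14 of these with nothing else, and 344 (77.7%) matched no other gene. The share without any match was thus not raised in the stretch against other Chr19 genes that were no anchor. With anchors included, 344 of 726 such other Chr19 genes (47.4%) matched no other gene.

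A looser search asked for any run of 4 consecutive internal exon lengths, in genes with at least 6 CDS segments. In the stretch 2 of 59 genes (3.39%) shared such a run with Chr20, against 168 of 321 (52.3%) of the other Chr19 genes that were no anchor. With unplaced scaffolds 20 of 59 (33.9%) shared one, against 33 of 321 (10.3%). The share with Chr20 was thus also low under a search that tolerates changed exons. That search uses the same exon lengths by which the stretch was delimited, so it gives no independent support. It was added after the stretch had been seen. The sequence of these genes was not analysed here, and a copy whose gene model differs in every run would have been missed.

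The 20 genes with a scaffold copy fell on 3 scaffolds in 3 separate parts of the stretch. Scaffold3590 shared 4 genes at 76.4 to 76.7 Mb, with all 3 steps in the same direction, and Scaffold3617 shared 2 genes at 81.7 to 81.8 Mb. Scaffold3597 shared 14 genes over 77.5 to 79.4 Mb, all 14 on opposite strands and with all 13 steps in reverse, so this scaffold ran parallel to Chr19 when turned round. Introns were equal in 167 of 209 cases (79.9%) over the 3 scaffolds, and the CDS was equal in 19 of 20 genes. Between Chr19 and Chr20 anchors these shares were 74.3% of introns and 87.0% of genes, and the difference was not tested. The 3 scaffolds held 108 genes and reached 3.15 Mb together.

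Scaffold3597 also carried the partners of the pair of genes with most CDS segments in the stretch, named here after their values had been seen. The gene evm.TU.Chr19.4230 (78736012 to 78785678) had 51 segments and a CDS of 5733 bp, as did evm.TU.Scaffold3597.36, with 37 of 48 introns equal. Its neighbour evm.TU.Chr19.4234 also had 51 segments, with 39 of 48 introns equal to those of evm.TU.Scaffold3597.33 and an equal CDS of 5703 bp. Of all 861 unplaced genes with at least 5 CDS segments, 31 had their sole match on Chr19 and 8 had it on Chr20. Of the 31, 17 were the matches of the stretch already given and 14 were matches of other Chr19 genes. No count for the other pseudochromosomes is given here, so the 31 and the 8 have no reference. Whether the 3 scaffolds belong to Chr20 was not tested.

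**Figure D4:**
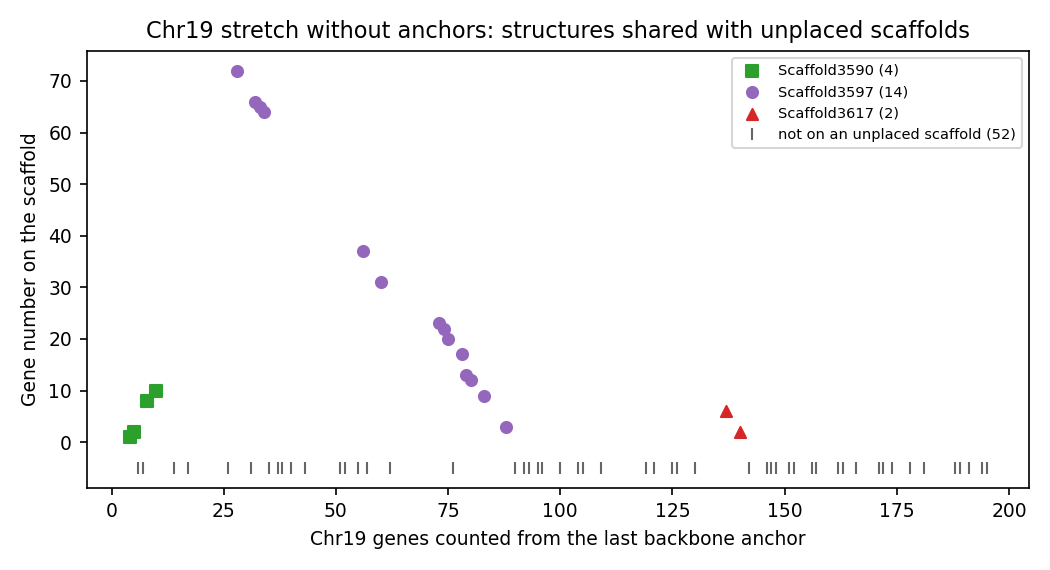
The 72 genes with at least 5 CDS segments in the Chr19 stretch without anchors, placed by their gene number past the last backbone anchor (x); y is the number of the matching gene on its scaffold, and grey ticks are genes with no scaffold copy. Scaffold3590 (4 genes) runs upwards, Scaffold3597 (14 genes) runs downwards and Scaffold3617 holds 2 genes; 52 genes have no scaffold copy.

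Along the backbone the excess was spread unevenly over the intervals between neighbouring anchors. Of 280 intervals 241 had the same neighbours on both chromosomes and could be compared, and they held 1470 Chr19 genes in 60.7 Mb and 1406 Chr20 genes in 60.6 Mb. Chr19 had more genes in 82, Chr20 had more in 79 and 80 were equal, 46 of these with no gene on either side. In 189 intervals the counts differed by at most 3 genes.

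Exactly 5 intervals held an excess of at least 14 Chr19 genes, and the next highest was 9. The largest lay between evm.TU.Chr19.3090 and evm.TU.Chr19.3260, with 88 Chr19 genes over 3.18 Mb (57.5 to 60.7 Mb) against 34 Chr20 genes over 1.51 Mb. The anchors on its sides were both on opposite strands but in unchanged order. Between evm.TU.Chr19.3736 and evm.TU.Chr19.3779 there were 29 Chr19 genes against 8 Chr20 genes. Between evm.TU.Chr19.3612 and evm.TU.Chr19.3651 there were 18 Chr19 genes over 0.550 Mb, whereas their partners evm.TU.Chr20.3486 and evm.TU.Chr20.3489 were adjacent genes, with 0 genes over 0.0856 Mb between them. Between evm.TU.Chr19.697 and evm.TU.Chr19.788 there were 44 against 28 genes. Between evm.TU.Chr19.3459 and evm.TU.Chr19.3497 there were 23 against 9 genes although the Chr19 interval was the slightly shorter one, 0.663 Mb against 0.697 Mb. In this last interval alone of the 5, therefore, the excess came without added length.

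These 5 intervals held 202 Chr19 genes against 79 Chr20 genes, an excess of 123, and the other 236 intervals together held 59 fewer genes on Chr19 than on Chr20. Of the 5, 4 lay between 57.5 and 70.2 Mb, inside the largest forward block. Over the 241 intervals the difference in gene number and the difference in length had a Spearman correlation of 0.53, given as a description because neighbouring intervals share an anchor.

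**Figure D5:**
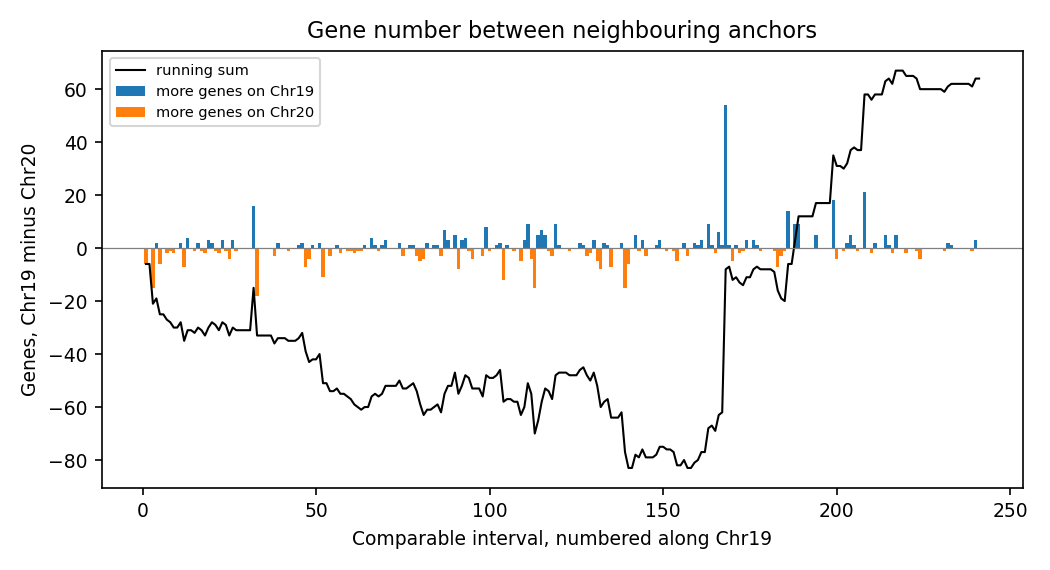
Number of genes on Chr19 minus that on Chr20 in each of 241 comparable intervals, numbered along Chr19 (bars), and the running sum of these differences (line). The running sum is below 0 along most of the chromosome, rises by 54 genes at the interval after evm.TU.Chr19.3090 and ends at 64.

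Among the comparable intervals, Chr20 had its largest excess right beside one of the 5. Between evm.TU.Chr19.788 and evm.TU.Chr19.803 there were 7 Chr19 genes against 25 Chr20 genes, and the interval on the other side of evm.TU.Chr19.788 was the one with 44 against 28. Between evm.TU.Chr19.138 and evm.TU.Chr19.173, inside the longest reversed block, there were 9 against 24 genes, and between evm.TU.Chr19.1919 and evm.TU.Chr19.1948 there were 14 against 29 genes. Another interval tied with these last, with 20 against 35 genes between evm.TU.Chr19.2507 and evm.TU.Chr19.2538. The 3 intervals named first summed to an excess of 48 genes on Chr20.

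Outside the comparable intervals, gene counts could be bounded only by the reordered stretches. The space between evm.TU.Chr19.2823 and the reordered stretch that starts at evm.TU.Chr19.2911 held 46 Chr19 genes against 15 Chr20 genes. On Chr20 this space ended at evm.TU.Chr20.2931, the partner of evm.TU.Chr19.3052, and not at the partner of evm.TU.Chr19.2911. On Chr19 it contained the segment whose structures recurred at the end of Chr20. Between the reordered stretch that ends at evm.TU.Chr19.2153 and the anchor evm.TU.Chr19.2199 there were 28 Chr19 genes against 3 Chr20 genes. On Chr20 this space began at evm.TU.Chr20.2082, the partner of evm.TU.Chr19.2144, and not at the partner of evm.TU.Chr19.2153. The spaces between neighbouring stretches or anchors summed to an excess of 147 genes on Chr19, 74 of them beside a reordered stretch and 73 elsewhere, and the reordered stretches themselves to 6 genes fewer on Chr19.

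The 202 Chr19 genes of the 5 intervals resembled other Chr19 genes that were no anchor in single-segment share and median CDS. More of the 202 had an annotated UTR, though not in every interval. A single CDS segment was found in 26.2% of them and in 25.6% of the 1705 other Chr19 genes that were no anchor, and the median CDS was 751.5 bp against 762 bp. A UTR was annotated in 57.9% against 47.2%, and in 53.3% of other Chr19 genes with anchors included. By interval the share was 67.0% after evm.TU.Chr19.3090 and 65.5% after evm.TU.Chr19.3736. It was 44.4% after evm.TU.Chr19.3612, 47.7% after evm.TU.Chr19.697 and 43.5% after evm.TU.Chr19.3459. Among the 59 genes with at least 5 CDS segments, 2 (3.39%) shared their structure with a Chr20 gene against 67 of 443 (15.1%), 0 with a gene on an unplaced scaffold against 23 of 443 (5.19%), and 52 (88.1%) with no gene anywhere against 344 of 443 (77.7%). Genes on the Chr20 side of these intervals also mostly had no match. This held for 8 of 9 such genes after evm.TU.Chr20.3101, 6 of 6 after evm.TU.Chr20.684 and 1 of 1 after evm.TU.Chr20.3567. After evm.TU.Chr20.3381_evm.TU.Chr20.3382 it held for 4 of 6. By runs of 4 exon lengths, 6 of 48 (12.5%) of the Chr19 genes had a counterpart on Chr20 against 168 of 321 (52.3%). The intervals were unlike in this: 4 of the 6 came from the 7 genes searched in the interval after evm.TU.Chr19.697 (57.1%), and in the interval after evm.TU.Chr19.3090 the count was 0 of 25. The remaining genes of the 202 had too few CDS segments to be searched. The intervals were chosen for their gene counts, so these shares are descriptions.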

How the data were processed

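The study's authors assembled the genome from long and short reads, grouped scaffolds into 22 pseudochromosomes by Hi-C with ALLHiC, and built gene models with Evidence Modeler from Augustus, Genscan, GeneWise and PASA predictions, with tool versions not given in the sources used here. For the RNA-seq libraries (labelled root, shoot and sporophyte, 1 each), which were not used here, FastQC, HISAT2 and Cufflinks are listed by the submitters' processing notes. The deposited annotation gives gene, exon and CDS positions in bp (1-based, no score values), not counts, so no depth or replicate error applies.

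Genes were counted at their midpoints. CDS segments were ordered by strand, and internal segments exclude the first and last. Anchors needed at least 5 CDS segments; copies on unplaced scaffolds were allowed. An isolated anchor lay more than 10 anchor ranks from both neighbours, and a large break was a step of more than 10 ranks after isolated anchors were set aside. An interval was comparable when its anchors were neighbours on both chromosomes. Strand, intron and CDS shares of the pair were set against the 10 other pairs by two-sided exact permutation tests, adjusted by Benjamini-Hochberg over 3. The members and lists were chosen with earlier results of these data known. The genes named were the first and last anchors, anchors beside the large break, isolated anchors, anchors flanking the 5 intervals with the largest Chr19 excess and the 3 with the largest Chr20 excess (ties by position), the anchor with most CDS segments, the 5 anchors with the largest intron difference, and the longest and most segmented gene of each chromosome; block ends, ends of reordered stretches and genes of the Chr19 and Chr20 ends were named after their values had been seen. Other minimum segment numbers, full exon lists, copies elsewhere, other rank limits and gene filters were tried. Scripts were tested on simulated data and ran in Python 3.11.15 with SciPy 1.17.1, Matplotlib 3.10.9, NumPy 2.4.6 and pandas 2.3.3. No gene functions, sequences or expression values were used.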

Additional observations from a re-analysis of the deposited data

How the results depend on the processing

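With at least 8 CDS segments per gene there were 172 anchors and rho was 0.908, and with copies on other pseudochromosomes allowed there were 3 large breaks. Without the 4 displaced anchors, an alternative chosen after seeing the data, rho was 0.99995. The Chr19 excess was 111 genes among genes with at least 5 CDS segments, and 1.36 genes per Mb as a density. Fewer genes qualify under the 8-segment and 5-segment settings by construction; the cause of the added breaks was not tested. The other 29 values stayed within the spread between pairs or within 1.5 times the main count. The exact permutation p cannot fall under 0.0909 in this design. For identical introns it reached 0.0909 with at least 8 CDS segments and with copies on other pseudochromosomes allowed. In the main and the remaining settings the exact permutation p for identical introns was 0.182 to 0.273. Equal CDS under full exon lists was not run, since the lists then fix it; the search by runs of 4 exon lengths, also added after seeing the data, is given with its genes in the report. No paired analysis was possible because the annotation holds no value per library. Anchors are 33.1% of the eligible Chr19 genes, so moves of genes with few exons, and breaks between anchors, go unseen. An order or strand set wrongly during scaffolding cannot be told apart from a rearrangement.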

Other observations

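Unplaced scaffolds also matched the middle of Chr19. Scaffold3710 shared 3 genes with Chr19 at 43.4 to 43.6 Mb and 2 with Chr20 at 44.7 to 44.8 Mb, all on the same strand. Scaffold3711 shared 5 genes with Chr19 at 44.8 to 45.7 Mb, with all 4 steps in reverse and 22 of 30 introns equal. Scaffold3716 shared 2 genes at 49.8 to 50.1 Mb, with 15 of 28 introns equal and an equal CDS in 1 of the 2. Scaffold3719 shared 2 genes at 50.5 to 52.1 Mb, with 7 of 14 introns equal. These matches lie inside the forward block that runs from evm.TU.Chr19.2351 to evm.TU.Chr19.2823, which covers 9.59 Mb on Chr19 against 12.1 Mb on Chr20.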
